A study of Mus musculus with 4 samples.

Results

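The effect of TGFb on regulatory T cells (Treg) in the absence of IL6 was read from the 6 Treg channels, of 26 channels in the whole series, that came from cultures with IL2 and TGFb (3 arrays) or with IL2 alone (3 arrays). The channels were chosen by the labelled cell type, dye and culture condition, so no measured value entered the choice. CD4+ cells of mouse lymph nodes had been kept for 4 days on plates coated with anti-CD3 at 1 ug/ml, which engages the T cell receptor. All of these cultures held IL2 at 100 units/ml, and in the TGFb cultures TGFb at 4 ng/ml was present as well, for 3 days. Each Agilent array, read in Cy3 and Cy5, carried the Treg RNA of a culture condition in one dye and its T-effector RNA in the other. TGFb arrays 1 and 2 and IL2 array 1 carried Treg RNA in Cy3, while TGFb array 3 and IL2 arrays 2 and 3 carried it in Cy5. Array numbers follow the listing in the labels. The same conditions with IL6 at 25 ng/ml (4 arrays with TGFb, 3 without) served as a point of comparison. Mouse strain, age, any reporter allele and the way Treg were separated are not given in the labels. It is therefore not known from the labels whether the Treg of the TGFb cultures were Treg from the start or arose in culture. These are bulk samples, in which fewer cells of a type and less RNA per cell cannot be told apart. Nothing in the labels says that the arrays came from separate animals or cultures, so the p-values below measure only the spread between arrays, which may be technical.

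TGFb binds a type II receptor that activates the type I receptor Tgfbr1, which phosphorylates Smad2 and Smad3, and these enter the nucleus with Smad4. The pathway induces its own inhibitors, among them Smad7, Skil and Pmepa1. In activated CD4 T cells TGFb together with IL2 is known to induce Foxp3, the transcription factor that defines Treg, and the surface molecules CD103 and CD73, and to restrain the Th2 programme led by Gata3. The series title names the question as conversion to Treg under TGFb and its inhibition by IL6.

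The Treg label was borne out by Foxp3. Its normalized log2 signal was 8.84, 9.05 and 8.48 in the Treg channels of TGFb arrays 1 to 3 and 8.57, 8.12 and 8.75 in those of IL2 arrays 1 to 3, against 6.37, 7.19 and 6.72 and then 6.06, 6.23 and 6.19 in the T-effector channels of the same arrays. The lowest Treg channel lay above the highest T-effector channel. Of all probes, 38.9% to 69.7% were well above background in the Treg channels of the TGFb arrays and 46.5% to 68.3% in those of the IL2 arrays. TGFb array 2 stood lowest, and the median signal of its negative controls was 123, against 2.06 to 22.6 on the other arrays. Treg channels correlated at 0.975 to 0.995 within TGFb and at 0.965 to 0.971 within IL2, across genes, which are not independent replicates. Between TGFb and IL2 arrays the values were 0.953 to 0.974. IL2 array 2 was at 0.974 with TGFb array 3, on the same slide and in the same dye. It was at 0.971 with TGFb array 1, on another slide and in the other dye. Both values were above its 0.965 and 0.968 with IL2 arrays 1 and 3. IL2 array 1 stood apart from IL2 arrays 2 and 3 in 2 Y-linked genes, chosen after their values were seen: Ddx3y was at 7.79, 7.85 and 7.91 with TGFb and at 8.83, 6.37 and 6.41 with IL2 alone, and Eif2s3y at 9.57, 9.53 and 9.90 with TGFb and at 10.13, 8.50 and 7.63 with IL2 alone. Neither gene passed the test of TGFb against IL2 (limma, adjusted p of 0.775 and 0.336), and their part in the results below was not tested.

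Promoter sequence is shown first for 3 genes on which the results turn: Nt5e and Aqp3, which were among the genes furthest up with TGFb, and Gata3, which was lower. The runs are the 250 bases before the RefSeq start site, 5′ to 3′ on the strand of the gene, in build GRCm38.p6. Capitals mark the letters CAGAC, which hold the Smad-binding core, or GTCTG, their reverse complement.
Nt5e, chr9:88327359-88327608, plus strand: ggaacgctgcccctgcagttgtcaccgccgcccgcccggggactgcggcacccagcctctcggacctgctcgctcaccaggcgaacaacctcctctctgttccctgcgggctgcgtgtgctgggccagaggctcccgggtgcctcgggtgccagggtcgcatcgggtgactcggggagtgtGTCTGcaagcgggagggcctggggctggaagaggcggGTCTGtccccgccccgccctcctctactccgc
Aqp3, chr4:41098184-41098433, minus strand: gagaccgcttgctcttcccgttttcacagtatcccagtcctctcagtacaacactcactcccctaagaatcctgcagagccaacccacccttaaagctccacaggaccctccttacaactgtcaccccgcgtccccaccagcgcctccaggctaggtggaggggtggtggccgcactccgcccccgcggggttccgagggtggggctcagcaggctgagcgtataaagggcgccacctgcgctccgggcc
Gata3, chr2:9878601-9878850, minus strand: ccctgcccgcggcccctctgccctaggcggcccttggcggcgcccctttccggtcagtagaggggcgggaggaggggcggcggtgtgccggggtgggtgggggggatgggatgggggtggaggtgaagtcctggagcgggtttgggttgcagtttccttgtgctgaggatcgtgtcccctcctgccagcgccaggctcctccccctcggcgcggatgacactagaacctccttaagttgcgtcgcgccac
The Nt5e run held the letters at 2 places and the other runs at none. Of all 32851 promoters in the table, 42.2% held them. A promoter was at hand for 521 of the 731 genes higher with TGFb, of which 48.4% held the letters, and for 538 of the 824 lower genes, of which 48.3% did, against 45.8% of the 12365 tested genes with a promoter. The letters are short and a match is a description, not a binding site.

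TGFb changed the signal of 1555 of 19898 genes in Treg at an adjusted p under 0.05 (limma, Benjamini-Hochberg over all genes), which is 7.81%. With TGFb 731 genes were higher (3.67%) and 824 lower (4.14%), and 215 of the higher and 324 of the lower differed by more than 2-fold. The median difference over all genes was -0.01 on the log2 scale. For 1531 of the called genes the 3 TGFb channels and the 3 IL2 channels did not overlap, which was so for 21.4% of all genes. The one slide that held both conditions, with Treg in the same dye, carried TGFb array 3 and IL2 array 2, and there 1554 called genes differed in the direction of the fit, against 71.1% of all genes. Both arrays are also part of the fit, so this describes the slide and is no second test. With slide as a fixed block 2132 genes were called. Without IL2 array 1 the count was 1342, of which 1053 were among the 1555 in the same direction. Without TGFb array 3 it was 1013, and without the whole slide of TGFb array 2 it was 1264.

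**Figure D1:**
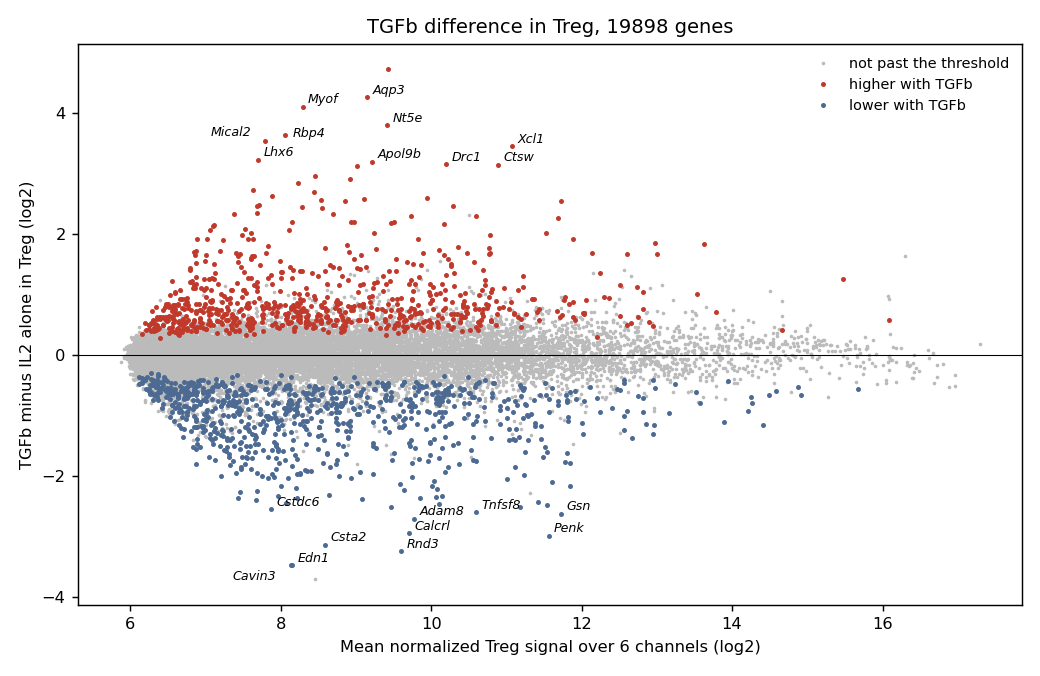
Log2 difference between TGFb and IL2 alone in Treg against the mean normalized log2 signal of the 6 Treg channels, 1 point per gene. Red points are the 731 genes higher with TGFb, blue points the 824 lower, at an adjusted p under 0.05, and grey points the rest. The genes with a label reach from 4.26 for Aqp3 to -3.48 for Cavin3 and Edn1.

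The genes that mark the TGFb response in Treg moved far. Nt5e encodes CD73, the ecto-enzyme that makes adenosine from AMP. Its Treg log2 signal was 11.20, 11.21 and 11.56 in TGFb arrays 1 to 3, against 8.32, 7.09 and 7.10 in IL2 arrays 1 to 3. The groups lay far apart, and IL2 array 1 was the highest of its group. The difference was 3.80 ± 0.37 (SE, adjusted p = 3.79e-07), or 13.9-fold. A second, dimmer Nt5e probe, above background in 2 of 6 channels, gave 1.03 and passed. Itgae encodes CD103, the integrin chain that binds E-cadherin on epithelium. It stood at 11.54, 11.49 and 11.46 with TGFb and at 8.90, 9.43 and 8.94 with IL2 alone, a difference of 2.46 ± 0.25 (adjusted p = 5.13e-07). A second probe of Itgae gave 1.93. Gata3 was at 8.89, 9.24 and 8.73 with TGFb, below the 10.48, 11.34 and 12.20 of IL2 alone. The IL2 values of Gata3 spread over more than those of TGFb, yet all lay above them. Its difference was -2.33 ± 0.47 (adjusted p = 0.00255).

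**Figure D2:**
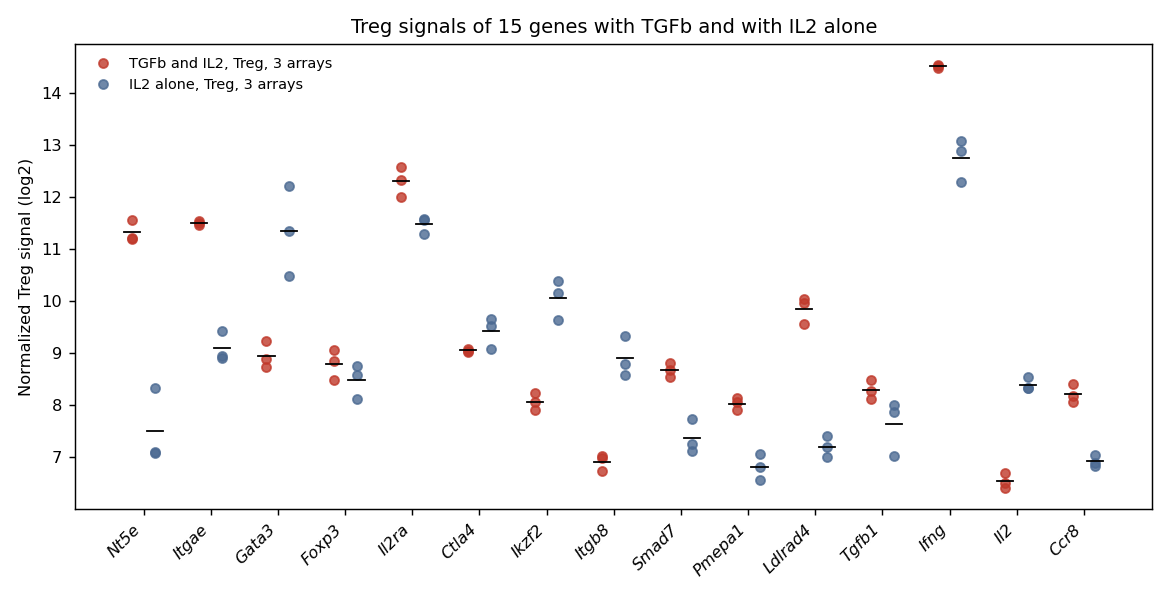
Normalized log2 signal of 15 genes in each Treg channel, with the 3 TGFb arrays on the left in red and the 3 IL2 arrays on the right in blue, and a bar at each mean. Nt5e, Itgae, Ldlrad4, Smad7, Pmepa1, Ccr8, Ifng and Il2ra lie higher with TGFb and Gata3, Ikzf2, Itgb8 and Il2 lower, while the groups of Foxp3 overlap.

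The counts for the gene lists below stand beside shares of 3.67% higher and 4.14% lower among all genes. Among the receptors, ligands and signalling Smads of the pathway, 7 of 20 tested members were higher, 1 was lower and 12 did not pass, with a median difference of 0.15. The type I receptor gene Tgfbr1 was at 10.88, 11.29 and 11.45 with TGFb and at 9.59, 9.27 and 9.63 with IL2 alone. All 3 TGFb channels lay above the IL2 channels, by 1.79 ± 0.18 (adjusted p = 6.33e-07). A second, dimmer Tgfbr1 probe gave 0.61 and passed. Bmpr2, a type II receptor for BMP ligands, rose by 1.46 ± 0.21 (adjusted p = 5.31e-05). Dimmer Bmpr2 probes gave 0.58, which passed, and 0.45, which did not. Furin, the protease that cleaves the TGFb precursor, was 1.51 ± 0.40 higher (adjusted p = 0.0216), with IL2 array 1 at 8.22 against 10.25 and 10.19 in the other IL2 arrays. The Furin call was lost under 8 of 20 other settings, among them those without IL2 array 1 (0.80), without TGFb array 1 (1.45) and without TGFb array 2 (1.40). Tgfb1, the ligand gene itself, did not pass: it was at 8.28, 8.49 and 8.11 with TGFb and at 7.03, 7.87 and 8.01 with IL2 alone (0.68 ± 0.24, adjusted p = 0.103). Smad2, Smad3 and Smad4 differed by 0.00, 0.00 and 0.04 and did not pass. The member that fell was Itgb8, the integrin chain that with alpha-v releases TGFb from its latent form. It was at 6.74, 7.03 and 6.98 with TGFb and at 9.32, 8.58 and 8.80 with IL2 alone (-2.02 ± 0.30, adjusted p = 7.1e-05). The 3 other Itgb8 probes, all dimmer, gave -0.92 and -0.39, which passed, and -0.07, which did not.

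The feedback inhibitors that passed moved one way. Of 13 tested, 8 were higher with TGFb, none was lower and 5 did not pass, and the median was 0.50. Ldlrad4, whose protein keeps Smad2 and Smad3 from the receptor, was at 10.03, 9.96 and 9.56 with TGFb and at 7.20, 7.0 and 7.41 with IL2 alone. This is 2.57 ± 0.18 (adjusted p = 2.85e-09). A second, dimmer Ldlrad4 probe gave 0.61 and passed. The corepressor gene Skil was at 10.71, 10.67 and 10.76 with TGFb and at 9.13, 9.16 and 8.93 with IL2 alone, a tight pair of groups that differed by 1.68 ± 0.12 (adjusted p = 2.98e-09). Smad7, the inhibitory Smad, was at 8.54, 8.68 and 8.81 with TGFb and at 7.12, 7.73 and 7.26 with IL2 alone (1.37 ± 0.21, adjusted p = 0.000138). Pmepa1, another inhibitor that binds Smad2 and Smad3, was at 8.06, 8.13 and 7.90 with TGFb and at 6.57, 6.81 and 7.07 with IL2 alone (1.19 ± 0.20, adjusted p = 0.000384). Among 24 genes known to be induced by TGFb in T or other cells, 7 were higher and 5 lower, with a median of 0.18. Besides Nt5e and Itgae, the chemokine receptor gene Ccr8 rose by 1.28 ± 0.21 (adjusted p = 0.000257). On the lower side of the same list were Id2, an inhibitor of E proteins, at 11.25, 11.56 and 11.28 with TGFb and 12.93, 12.51 and 12.56 with IL2 alone (-1.31 ± 0.16, adjusted p = 6.06e-06), and the AP-1 gene Junb (-1.14 ± 0.21, adjusted p = 0.000874). A second Junb probe gave -0.64 and did not pass.

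Genes of Treg identity did not move together. Of 29 tested, 7 were higher, 10 lower and 12 did not pass, with a median of -0.29. Foxp3 itself overlapped between the groups, and its difference of 0.23 ± 0.23 did not pass (adjusted p = 0.674). Ctla4, an inhibitory receptor of Treg, was at 9.04, 9.08 and 9.03 with TGFb and at 9.52, 9.65 and 9.08 with IL2 alone, and did not pass either (-0.33 ± 0.16, adjusted p = 0.279), although it passed with slide as a fixed block (-0.56) and with Agilent's processed signals (-0.44). Il2ra, the IL2 receptor alpha chain CD25, was at 12.32, 12 and 12.57 with TGFb and at 11.58, 11.56 and 11.28 with IL2 alone, a rise of 0.88 ± 0.23 (adjusted p = 0.0156). That call was lost under 6 of 20 other settings, among them those without TGFb array 1 (0.84), TGFb array 3 (0.79) or IL2 array 3 (0.76). Of the 3 other Il2ra probes, 1 passed (1.18) and 2 did not (0.97 and 0.43). Socs2, a STAT5-induced inhibitor of cytokine signals, was among the members furthest up, at 13.01, 12.95 and 13.07 with TGFb and 11.07, 9.83 and 10.46 with IL2 alone (2.55 ± 0.33, adjusted p = 1.3e-05). A second, dimmer Socs2 probe gave 0.70 and passed.

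The largest falls on the Treg list were those of Penk, Itgb8 and Ikzf2. Penk encodes proenkephalin, the precursor of the enkephalin peptides, and stood at 10.13, 10.17 and 9.92 with TGFb against 12.94, 12.74 and 13.49 with IL2 alone (-2.99 ± 0.21, adjusted p = 2.67e-09). Ikzf2 encodes Helios, a transcription factor of Treg that are formed in the thymus. It was at 7.90, 8.07 and 8.24 with TGFb and at 10.39, 10.16 and 9.64 with IL2 alone (-1.93 ± 0.22, adjusted p = 2.05e-06). All 4 other Ikzf2 probes also had a lower mean with TGFb (-0.59 to -1.39), and 2 of them passed.

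Cytokine genes moved in both directions. Il2, the growth factor of T cells that Treg are known to make little of, was at 6.51, 6.70 and 6.41 with TGFb and at 8.54, 8.32 and 8.32 with IL2 alone. The fall of 1.85 had an SE of 0.10 (adjusted p = 7.08e-11), and a second probe fell by 0.68. With Agilent's processed signals the Il2 difference was -3.28. Il3, a growth factor of myeloid cells, went the other way, with 10.46, 10.47 and 10.20 under TGFb and 7.50, 7.43 and 7.48 under IL2 alone (2.91 ± 0.12, adjusted p = 5.89e-13). Ifng, the defining Th1 cytokine gene, was at 14.47, 14.52 and 14.53 with TGFb and at 12.29, 13.08 and 12.88 with IL2 alone (1.84 ± 0.47, adjusted p = 0.0151). The direction of Ifng was the same with each array left out (1.68 to 1.96), but the call was lost in every case except that of IL2 array 2. A second Ifng probe gave 2.11 and passed. Il4, the defining Th2 cytokine gene, was at 6.96, 7.24 and 6.86 with TGFb and at 9.68, 9.18 and 9.37 with IL2 alone (-2.37 ± 0.53, adjusted p = 0.00576). This call was lost under 2 of 20 other settings, among them that without IL2 array 1 (-2.16).

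Of 22 Th1 and cytotoxic genes, 8 were higher and 3 lower, with a median of 0.15. Xcl1, the chemokine lymphotactin, was at 12.80, 12.63 and 12.95 with TGFb and at 9.51, 9.45 and 9.08 with IL2 alone (3.45 ± 0.21, adjusted p = 2.69e-10). Il18r1, a chain of the IL18 receptor, rose by 2.44 ± 0.31 and Lta, the TNF family member lymphotoxin alpha, by 2.27 ± 0.21. Ccl5, a chemokine of effector T cells, was on the lower side, at 7.96, 7.98 and 7.78 with TGFb and 10.16, 10.23 and 10.39 with IL2 alone (-2.39 ± 0.20, adjusted p = 2.45e-08). Of 19 Th2 genes 3 were higher and 4 lower (median -0.06). With Gata3 and Il4, the lower ones held Nfil3, a transcription factor, which fell by 1.68 with an SE of 0.26. Of 18 Th17 genes 4 were higher and 4 lower (median 0.04). Ahr, a ligand-activated transcription factor, was at 8.04, 8.33 and 8.19 with TGFb and at 6.65, 6.56 and 7.07 with IL2 alone (1.45 ± 0.20, adjusted p = 2.73e-05). Batf, an AP-1 factor needed for Th17 cells, was at 10.23, 10.23 and 10.04 with TGFb and at 11.80, 12.41 and 12 with IL2 alone (-1.85 ± 0.34, adjusted p = 0.000869). The Th17 cytokine gene Il17a differed by -0.29 and did not pass.

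**Figure D3:**
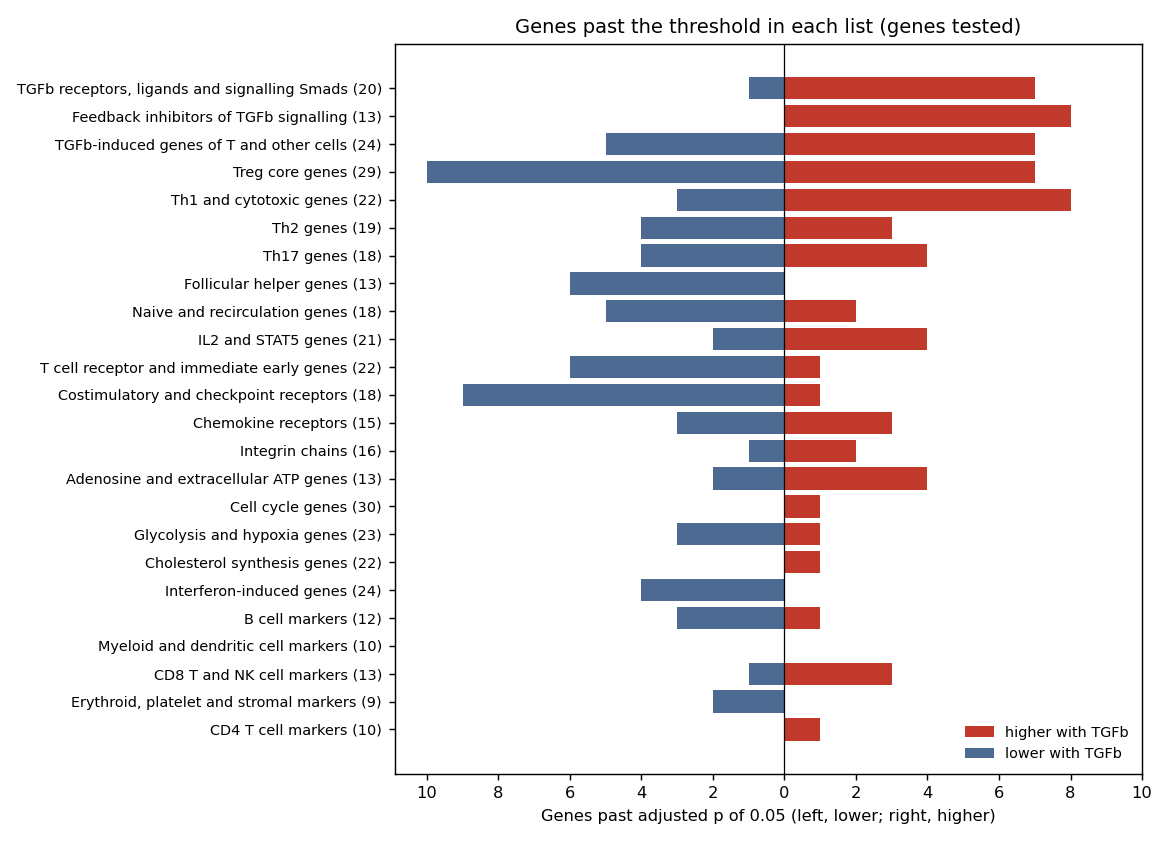
Number of genes past an adjusted p of 0.05 in each of 24 gene lists, with genes higher with TGFb to the right in red and lower ones to the left in blue. The number of genes tested stands in brackets. Among all genes 3.67% were higher and 4.14% lower. The feedback inhibitors had 8 of 13 higher and none lower, and the costimulatory and checkpoint receptors 1 of 18 higher and 9 lower.

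Among 18 tested surface receptors for costimulation and checkpoints, 9 were lower, 1 was higher and 8 did not pass, and the median was -0.66. Btla, an inhibitory receptor of the CD28 family, was at 8.89, 9.15 and 8.97 with TGFb and at 10.89, 10.54 and 10.62 with IL2 alone (-1.72 ± 0.15, adjusted p = 9.86e-08). Cd200, which engages an inhibitory receptor on myeloid cells, was at 10.31, 10.31 and 10.41 with TGFb and at 11.96, 11.69 and 11.59 with IL2 alone (-1.41 ± 0.14, adjusted p = 2.68e-07). Cd96, a receptor of the nectin-binding family, was the member that rose (0.98 ± 0.21, adjusted p = 0.0036). Btla and Cd200 also stand on the list of 13 follicular helper genes, of which 6 were lower, none higher and 7 did not pass (median -0.58). Slamf6, a homophilic receptor of the SLAM family, was at 8.40, 8.60 and 8.55 with TGFb and at 11.12, 10.60 and 10.55 with IL2 alone (-2.24 ± 0.23, adjusted p = 5.13e-07). Bcl6, the factor that defines follicular helper cells, was at 7.84, 5.38 and 7.68 with TGFb and at 9.33, 8.59 and 9.25 with IL2 alone (-2.17 ± 0.52, adjusted p = 0.0102). TGFb array 2 was far the lowest for Bcl6. The Bcl6 call was lost under 7 of 20 other settings, among them those without TGFb array 2 (-1.35) and without IL2 array 3 (-2.04).

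Among 18 naive and recirculation genes 5 were lower and 2 higher, with a median of -0.08. Satb1, a chromatin organiser of T cells, was at 9.83, 9.81 and 10.03 with TGFb and at 12.12, 12.72 and 12.57 with IL2 alone (-2.52 ± 0.18, adjusted p = 4.04e-09). Ccr7 and Klf2 of this list differed by 0.08 and 0.05 and did not pass. Of 15 chemokine receptor genes 3 were higher and 3 lower (median -0.06). Cxcr3, the receptor for interferon-induced chemokines, was at 11.04, 11.24 and 10.73 with TGFb and at 9.45, 8.71 and 9.46 with IL2 alone (1.74 ± 0.22, adjusted p = 1.49e-05). Of 16 integrin chains 2 were higher, 1 was lower and 13 did not pass (median 0.13). Beside Itgae, Itgb2, the beta chain of LFA-1, rose by 1.04 ± 0.16, while Itgb7, the chain that pairs with Itgae, differed by 0.17 and did not pass. On the list of 13 genes of adenosine and extracellular ATP 4 were higher and 2 lower (median 0.00). There Slc29a1, an adenosine transporter, rose by 0.95 ± 0.19, and Adk, the kinase that turns adenosine into AMP, fell by 0.95 with an SE of 0.10.

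The highest genes outside these lists belonged to no one pathway. Aqp3, a water and glycerol channel, was at 11.36, 11.42 and 11.08 with TGFb and at 7.18, 6.92 and 6.91 with IL2 alone (4.26 ± 0.30, or 19.2-fold, adjusted p = 2.99e-09). Myof, a membrane repair protein, was at 10.25, 10.34 and 10.38 with TGFb and at 6.26, 6.23 and 6.26 with IL2 alone (4.10 ± 0.13, adjusted p = 7.92e-15). In the IL2 cultures Myof was well above background on 1 of 3 arrays. Dimmer Myof probes gave 3.78 and 0.67, and both passed. Rbp4, the carrier of retinol in blood, was at 9.93, 10.16 and 9.62 with TGFb and at 6.45, 6.04 and 6.15 with IL2 alone, where it too was above background on 1 array (3.64 ± 0.18). Mical2, an actin-oxidising enzyme, was at 9.61, 9.75 and 9.34 with TGFb and not well above background on any IL2 array (6.09, 5.77 and 6.15). The difference of Mical2 in the fit was 3.53 ± 0.18, or 11.6-fold (adjusted p = 3.41e-11). With no IL2 signal well above background this size is uncertain, and under 20 other settings the log2 difference ran from 2.69 to 7.69. Ctsw, a cathepsin of cytotoxic lymphocytes, was at 12.48, 12.56 and 12.34 with TGFb and at 9.45, 9.20 and 9.29 with IL2 alone (3.14 ± 0.12, adjusted p = 1.16e-13). Lhx6, a homeobox factor, rose by 3.23 ± 0.18 and was above background on 1 of 3 IL2 arrays. Where the IL2 signal was near background the size depended on the background correction: with Agilent's processed signals the differences of Myof, Rbp4 and Lhx6 were 7.69, 6.51 and 6.69. The second probes of Lhx6 and Mical2, which were near background in these channels, differed by 0.06 and 0.14 and did not pass. Drc1, a part of the axoneme of cilia, rose by 3.15 ± 0.50, with IL2 array 1 at 10.28 against 7.26 and 7.99 in the other IL2 arrays. Apol9b rose by 3.19 ± 0.33, and as a member of a family of near-identical genes its probe may read its copies too.

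Of the 10 lowest genes, Cavin3, a coat protein of caveolae, was at 6.37, 6.67 and 6.24 with TGFb and at 10.39, 9.27 and 9.84 with IL2 alone (-3.48 ± 0.19, adjusted p = 5.8e-11). Edn1, the precursor of the vasoconstrictor peptide endothelin, was at 6.35, 6.89 and 6.02 with TGFb and at 9.77, 9.48 and 10.40 with IL2 alone (-3.48 ± 0.32, adjusted p = 1.64e-07). With TGFb, Cavin3 and Edn1 were well above background on 2 of 3 arrays, and with Agilent's processed signals their differences were -5.30 and -5.58. Calcrl, a receptor of the peptides CGRP and adrenomedullin, fell by 2.95 with an SE of 0.23, to 8.19, 8.48 and 8.05 with TGFb against 11.39, 10.70 and 11.40 with IL2 alone. Rnd3, a small GTPase, fell by 3.25 with an SE of 0.37, Adam8, a membrane protease, by 2.71 with an SE of 0.34, and Gsn, the actin-severing protein gelsolin, by 2.63 with an SE of 0.21. Tnfsf8, the ligand of CD30, fell by 2.60 with an SE of 0.34. Csta2 and Cstdc6, which belong to the stefin A family of cathepsin inhibitors, fell by 3.14 and 2.55 with SEs of 0.18 and 0.12, and Cstdc6 was at -4.07 with Agilent's processed signals. Their family members are near-identical in sequence, so which copy each probe reads is uncertain.

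Lists of receptor signalling and metabolism were counted in the same way. Of 22 T cell receptor and immediate early genes 6 were lower, 1 was higher and 15 did not pass (median -0.27). Egr1, an early growth response factor, was at 9.73, 9.73 and 9.56 with TGFb and at 10.71, 10.66 and 11.05 with IL2 alone (-1.14 ± 0.17, adjusted p = 8.62e-05), and Nr4a2, an orphan nuclear receptor, fell by 1.16 with an SE of 0.13. Jun, an AP-1 subunit, was the member that rose (0.86 ± 0.11). Of 23 glycolysis and hypoxia genes 3 were lower, 1 was higher and 19 did not pass (median -0.43). Hif1a, the oxygen-regulated transcription factor subunit, fell by 1.36 with an SE of 0.23. Of 24 interferon-induced genes 4 were lower, none was higher and 20 did not pass (median -0.30). Gbp2, a guanylate-binding protein, was at 13.14, 13.30 and 13.50 with TGFb and at 14.60, 14.45 and 14.36 with IL2 alone (-1.11 ± 0.13, adjusted p = 2.55e-06). Usp18, which removes ISG15 from proteins, fell by 1.27 with an SE of 0.23. Of 30 cell cycle genes 1 was higher, and of 22 cholesterol synthesis genes 1 was higher, with no lower member on either list and medians of 0.18 and 0.23. Higher members on these 2 lists were about as frequent as the 3.67% among all genes. Of 21 IL2 and STAT5 genes 4 were higher and 2 lower (median 0.14).

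Markers of other cells were examined as whole lists. Of 12 B cell markers 3 were lower and 1 was higher (median -0.25). Cd79b, a chain of the B cell receptor complex, was at 7.32, 7.29 and 7.35 with TGFb and at 8.61, 9.39 and 9.38 with IL2 alone (-1.72 ± 0.27, adjusted p = 0.000153), while Ighm, the immunoglobulin mu chain, was at 13.14, 13.17 and 13 with TGFb and at 11.90, 11.98 and 11.90 with IL2 alone (1.16 ± 0.13, adjusted p = 2.46e-06). The summed signal of the 12 markers was 9565 to 10353 with TGFb and 5408 to 6765 with IL2 alone, and without Ighm it was 1003 to 1373 with TGFb and 1587 to 2725 with IL2 alone. Pax5, Cd79a, Blk and Cd22 were well above background on at most 1 array of each group. Igh-VJ558, a probe for an immunoglobulin heavy chain variable segment that carries only the array's own name and was singled out after its value was seen, had the highest difference of all 731 higher genes. It was at 11.94, 11.81 and 11.60 with TGFb and at 6.20, 8.87 and 6.11 with IL2 alone (4.72, adjusted p = 2.64e-07). Of 13 CD8 T and NK cell markers 3 were higher and 1 was lower (median 0.02). Cd8a was at 9.79, 9.99 and 9.57 with TGFb and at 7.25, 7.87 and 8.81 with IL2 alone (1.82 ± 0.41, adjusted p = 0.00654). This call was lost under 3 of 20 other settings, among them that without IL2 array 1 (1.36). The 2 further Cd8a probes gave 1.34 and 1.64 and passed. Cd8b1, which pairs with Cd8a, differed by 0.40 and did not pass. The summed signal of this list was 4617 to 5605 with TGFb and 4357 to 4918 with IL2 alone. Its NK receptor genes were not alike. Klrb1c, Klra1 and Klra8 were above background in at most 1 channel, and Ncr1 and Klrk1 on 1 array of each group. Klrd1 and Klrc1 were above it more often and passed. Eomes was above it on 2 arrays of each group and Gzmm on 2 TGFb and 3 IL2 arrays, and neither passed. Klrd1, which encodes CD94, rose by 1.28 ± 0.24, and by 0.84 without IL2 array 1. Klrc1, above background on 3 TGFb and 2 IL2 arrays, rose by 0.88 ± 0.21 (adjusted p = 0.00825). A second, dimmer Klrc1 probe gave 0.28 and did not pass. None of 10 myeloid and dendritic cell markers passed, and 2 of 9 erythroid, platelet and stromal markers were lower. Of 10 CD4 T cell markers 1 was higher, and Cd4 differed by 0.10 and did not pass. With 10 genes each, the counts for the myeloid and CD4 T cell markers lie near the 7.81% called among all genes. The part of other cells in the differences above was not tested.

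The same contrast in the T-effector channels was set beside that in Treg. There 860 genes (4.32%) passed, and 458 of the 1555 Treg calls were among them. Both contrasts come from the same arrays, so their overlap is no independent evidence. The difference between the TGFb contrasts of Treg and of T-effector was itself tested, and 1664 genes (8.36%) passed, 641 of them among the 1555. This count depends heavily on the background correction: with the normexp parameters fitted on all spots it was 188, and without TGFb array 3 it was 453. Of the 93 genes named by rule 44 passed this test, and 19 of them did so under each of 17 alternative settings.

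Helios and Itgb8 were among those 19. Ikzf2 was at 7.49, 7.48 and 6.99 with TGFb and at 6.96, 6.60 and 6.74 with IL2 alone in the T-effector channels, a difference of 0.49 that did not pass. The contrast in Treg minus that in T-effector was -2.42 ± 0.23 (adjusted p = 2.22e-06). In T-effector channels Itgb8 was at 6.28, 6.61 and 6.07 with TGFb and at 5.62, 5.95 and 6.20 with IL2 alone, a difference of 0.43. Its contrasts were apart by -2.45 ± 0.32 (adjusted p = 7.23e-05). The stefin A genes Csta2 and Cstdc6 were apart by -2.39 ± 0.19 and -2.36 ± 0.13. Cstdc6 was at 6.62, 6.88 and 6.83 in the T-effector channels of the IL2 arrays. T-effector RNA was in Cy5 on IL2 array 1 and in Cy3 on IL2 arrays 2 and 3. The lowest signals of probes above background were taken from Treg channels only. Over all arrays they were 5.58 to 5.72 in Cy5 and 6.10 to 6.58 in Cy3. At such low T-effector levels a fall of Itgb8 could hardly have been seen, and one of Ikzf2 or Cstdc6 only in part. Of the genes that rose, Il3 (2.11 ± 0.13), Lhx6 (2.01 ± 0.19), Ighm (1.90 ± 0.14), Myof (1.81 ± 0.14), Ldlrad4 (1.56 ± 0.19), Xcl1 (1.56 ± 0.23), Rbp4 (1.43 ± 0.19) and Ctsw (1.25 ± 0.12) had the larger rise in Treg. Mical2 passed as well, but it was not well above background on any IL2 Treg array. Its difference ran from 1.33 with normexp fitted on all spots to 3.10 with Agilent's processed signals. Lhx6, Myof and Rbp4, above background on 1 IL2 Treg array each, also depended on the correction. Their differences were 1.18, 1.26 and 0.94 with normexp fitted on all spots and 2.92, 2.25 and 1.87 with processed signals. Ighm fell in T-effector channels, by 0.74, so the signs of the 2 cell types were opposite. Il2 fell in both cell types, by 0.94 in T-effector, and further in Treg (-0.91 ± 0.11). Cd200 (-1.25 ± 0.15), Id2 (-1.04 ± 0.17), Egr1 (-1.14 ± 0.18) and Junb (-1.37 ± 0.22) had lower contrasts in Treg, and their T-effector differences of -0.16, -0.27, 0.00 and 0.23 did not pass. Nt5e and Aqp3 rose in both cell types. Their Treg contrasts of 3.80 and 4.26 stood beside 3.87 and 3.77 in T-effector, and the differences of -0.07 and 0.50 did not pass. Gata3 fell by 1.92 in T-effector, and Smad7, Skil and Tgfbr1 rose by 1.1, 1.29 and 1.84 there, none with a difference from Treg that passed.

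**Figure D4:**
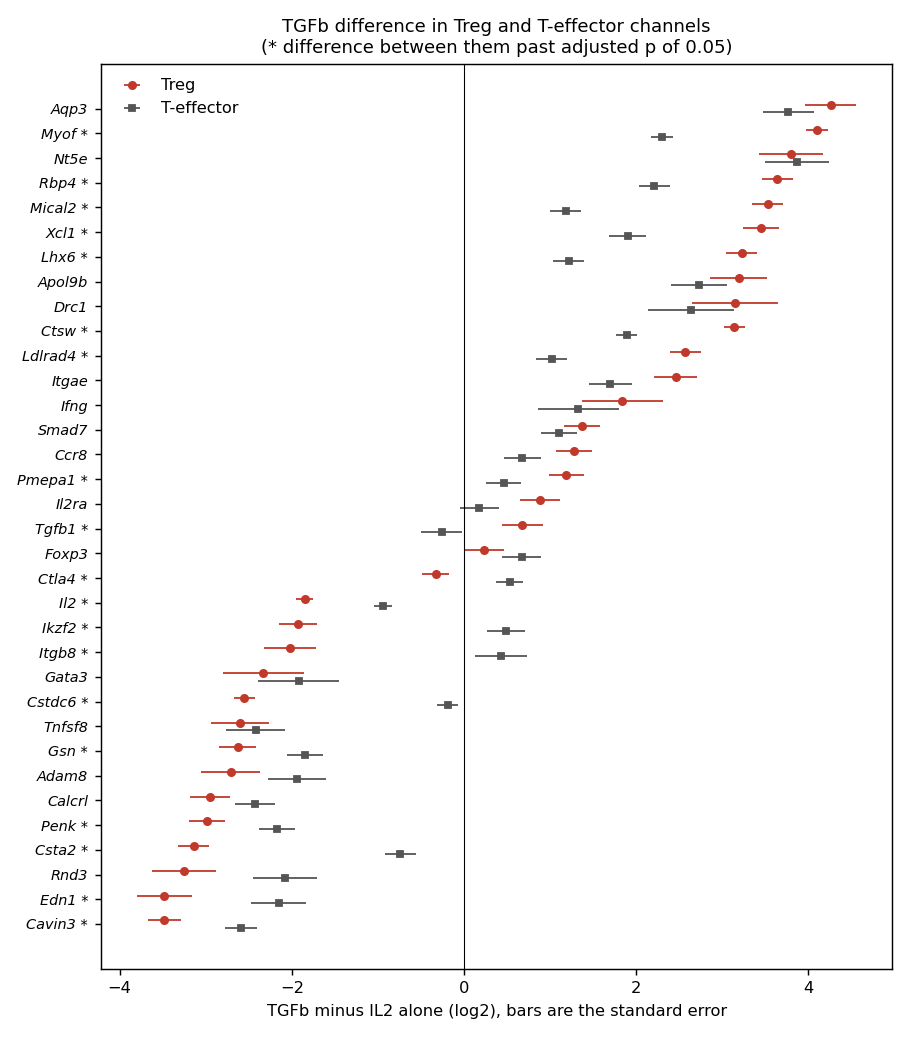
Log2 difference between TGFb and IL2 alone in Treg channels (red circles) and T-effector channels (grey squares) of the same 6 arrays, with the standard error of the fit as bars. The genes are the 15 of the plot of signals by array and the 10 highest and 10 lowest, and an asterisk marks those whose contrasts differed between the cell types at an adjusted p under 0.05. Ikzf2 and Itgb8 lie left of 0 in Treg alone. In the T-effector channels Itgb8 was close to background and Ikzf2 was low, which limits the fall that could be seen there.

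The TGFb contrast was also available in Treg of cultures with IL6, from 7 other arrays that share no sample with the 6. There 2019 genes (10.1%) passed. Of the 1555 genes called without IL6, 877 passed with IL6 as well, 867 in the same direction and 10 in the opposite one. This is 56.4% of the calls without IL6 and 43.4% of those with IL6. The sign was the same for 93.4% of the 1555, against 65.8% of all genes. TGFb arrays 1 to 3 share slide and Treg dye with arrays 1 to 3 of TGFb with IL6, and IL2 array 1 shares them with IL6 array 2. What this adds to the likeness was not tested. The difference between the contrasts without and with IL6 passed for 186 genes (0.935%), 105 of them among the 1555.

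Of the 93 named genes 9 differed in this way, and for 7 of the 9 the call was kept under each of 26 other settings. Ahr rose less without IL6: beside the 1.45 given above, its values were 10.17, 10.59, 9.98 and 10.71 with TGFb and IL6 and 7.35, 7.07 and 7.10 with IL6 alone, a rise of 3.18, and the contrasts differed by -1.73 ± 0.27 (adjusted p = 9.57e-04). Slamf6 fell without IL6, whereas it was at 10.23, 10.21, 10.39 and 9.89 with TGFb and IL6 and at 10.07, 10.54 and 10.07 with IL6 alone, where the groups overlapped and the difference of -0.05 did not pass. Its contrasts were apart by -2.19 ± 0.31 (adjusted p = 3.41e-04). Satb1 (-1.47 ± 0.25) and Il2 (-1.28 ± 0.14) fell further without IL6. Il2 was at 6.76, 6.72 and 6.86 with IL6 alone and at 6.22, 6.17, 6.25 and 6.23 with TGFb and IL6. The lowest signals of probes above background on the arrays with IL6 alone were 6.24, 6.30 and 5.72. A fall of Il2 as large as that without IL6 could therefore hardly have been seen with IL6. Gbp2 had opposite signs, with -1.11 without IL6 and 0.45 with it, apart by -1.56 ± 0.17 (adjusted p = 1.61e-05). Edn1 (-2.67 ± 0.44) and Mical2 (1.56 ± 0.25) also passed, and each lost the call under 1 of the 26 settings. The size of these 2 differences is limited by background as well. Mical2 was not well above it on any IL2 array. Edn1 was at 5.87, 6.13, 5.93 and 6.02 with TGFb and IL6. The lowest signals of probes above background on those arrays were 6.10, 6.42, 5.63 and 5.58. For Nt5e, Aqp3, Penk, Ldlrad4 and Skil the contrasts with IL6 were 3.42, 3.90, -2.97, 2.79 and 1.88, and their differences from those without IL6 did not pass.

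**Figure D5:**
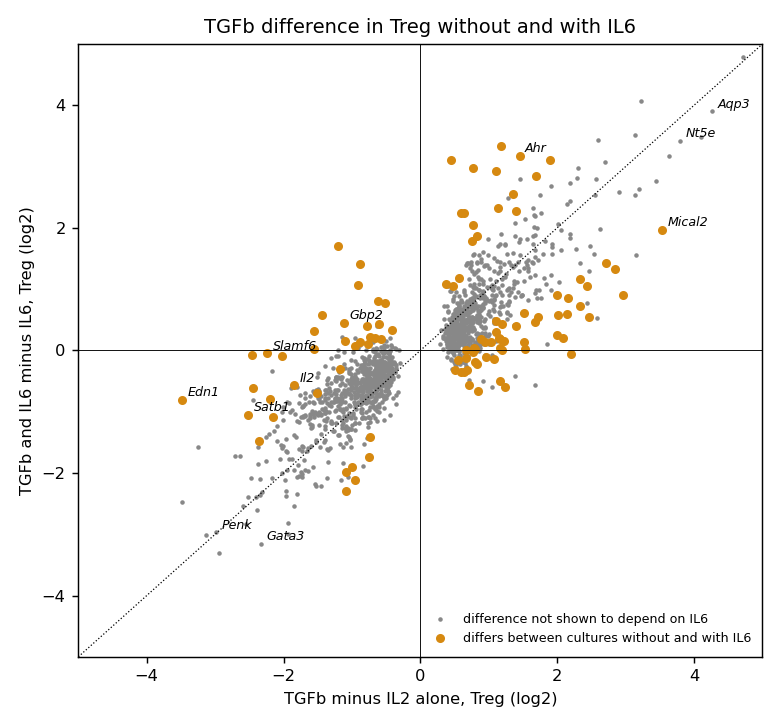
Log2 difference between TGFb and IL2 alone in Treg (horizontal axis) against that between TGFb with IL6 and IL6 alone in Treg (vertical axis) for the 1555 genes called without IL6. Orange points are the 105 genes whose contrasts differed at an adjusted p under 0.05, and the dotted line marks equal contrasts. Nt5e (3.80 and 3.42) and Aqp3 (4.26 and 3.90) lie near the line, and Ahr (1.45 and 3.18) and Slamf6 (-2.24 and -0.05) above it.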

How the data were processed

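Per the file headers, the deposited arrays hold scanner intensities: mean signals and median backgrounds in Cy3 and Cy5. The submitters' processing notes name Agilent Feature Extraction 9.5.1.1. The deposited table of log2 values was not used. In limma 3.58.1 (R 4.3.3) normexp (offset 50) removed the background, its parameters fitted without spots marked for local background, followed by loess within arrays and quantile normalization of mean signals between them. A probe was kept if 3 or more of the 26 channels were well above background and at most 3 arrays lacked it, and the brightest kept probe stood for its gene. Clones without a gene symbol count as genes here. One separate-channel fit over all 13 arrays had a dye term, an intraspot correlation of 0.45 and 17 residual degrees of freedom, and p-values were adjusted by Benjamini-Hochberg over 19898 genes. Levels are normalized log2 signals, comparable for 1 probe across channels but not between genes.

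The genes and lists were chosen with earlier results of these data known. Named were 15 genes whatever their test, up to 4 called genes of each of 24 lists by size, and the 10 highest and lowest called genes with symbols and without overlap, 93 in all, with a selection printed. List members that did not pass were given as examples. Promoters from the RefSeq table were matched by symbol, 66 of the 93. Alternatives were other background corrections, normalization, filters, every probe, fewer channels, slide or array number as a block, and arrays left out. The small number of arrays limits precision. Some genes that the rules name are not reported here.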

Additional observations from a re-analysis of the deposited data

Results flagged for a closer look

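Results stood out where the TGFb contrast differed between Treg and T-effector channels, by a test of the difference itself at an adjusted p under 0.05 (limma). It was looked for among the 15 genes named whatever their test, the highest and lowest genes, the markers of other cells and the genes that kept this call under every other setting. The contrast in Treg minus that in T-effector, in log2 units, was positive for Mical2 2.36, Il3 2.11, Lhx6 2.01, Ighm 1.90, Myof 1.81, Cd8a 1.77, Ldlrad4 1.56, Xcl1 1.56, Rbp4 1.43, Klrd1 1.33, Ctsw 1.25, Cd79b 0.98, Tgfb1 0.94, Klrc1 0.90, Cd2 0.87, Pmepa1 0.73. It was negative for Itgb8 -2.45, Ikzf2 -2.42, Csta2 -2.39, Cstdc6 -2.36, Junb -1.37, Edn1 -1.33, Cd200 -1.25, Egr1 -1.14, Crtam -1.07, Id2 -1.04, Il2 -0.91, Cavin3 -0.88, Ctla4 -0.86, Penk -0.82, Gsn -0.78. Not all of these calls were equally stable: under 17 alternative settings the call was kept in 6 for Cd79b, 7 for Pmepa1, 8 each for Crtam and Gsn, 9 for Tgfb1, 11 for Penk, 12 each for Cavin3 and Cd2, 13 each for Cd8a, Klrc1 and Edn1, 15 for Ctla4 and 16 for Klrd1, and in all 17 for the other genes. The sizes for Mical2, Lhx6, Myof and Rbp4 are limited by background in the IL2 Treg channels. Low signals in the T-effector channels limit the fall that could be seen there for Ikzf2, Itgb8 and Cstdc6.

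The contrast also differed between Treg cultures without and with IL6. Without IL6 minus with IL6 it was, in log2 units, Edn1 -2.67, Slamf6 -2.19, Ahr -1.73, Gbp2 -1.56, Satb1 -1.47, Il2 -1.28, Mical2 1.56. The sizes for Edn1, Il2 and Mical2 are limited by background.

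In the group of 4 arrays with TGFb and IL6, 1 array lay apart from the other three in 2 genes by Dixon's gap test. Ighm had 1 array at 12.18 and Xcl1 1 at 11.33. The gap test was run on the same genes as the comparison of Treg with T-effector above. By chance about 1 in 20 such groups is marked, so 2 marks among that many genes are within what chance would give. These arrays do not enter the comparison of TGFb with IL2 alone except through the shared estimate of the spread.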

How the results depend on the processing

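No gene named by rule turned its direction under any alternative. The 1555 genes called with TGFb over IL2 in Treg became 2348 with Agilent's processed signals, 1013 with the 13 Treg channels alone and 552 with the 6 Treg channels alone, where fewer residual degrees of freedom are left, and 1013 to 1360 with 1 array left out. The 1664 genes whose contrast differed between Treg and T-effector became 4384 with processed signals, 188 with normexp fitted on all spots, 1046 without the slide of TGFb array 2 (added after the data were seen) and 453 to 1639 with 1 array left out. The 2019 genes of the contrast with IL6 became 3102 with slide as a fixed block and 1260 to 2129 with 1 array left out. The 186 genes that differed between cultures without and with IL6 became 86 with 13 Treg channels, 338 with slide as a fixed block, 106 without the slide of TGFb array 2 and 125 to 425 with 1 array left out. Unless stated, the cause was not tested. Whether the array numbers pair the samples is not settled. Same-numbered Treg channels of TGFb and IL2 deviated from their group means at correlations of -0.15, -0.53 and -0.51. TGFb array 3 and IL2 array 2, on 1 slide in 1 dye, were at 0.55, and TGFb array 2 and IL2 array 3, on different slides in different dyes, at 0.43. The deviations of 3 arrays from their own mean sum to 0, so these values constrain one another and cannot exclude a shared culture or animal. With the array number as a replicate block 1595, 1182, 1861 and 179 genes were called in the 4 comparisons. Of the 93 named genes, the call was lost for 2 to 23 under a setting that lost any, most with 13 or with 6 Treg channels. With Agilent's processed signals Ahr, Ccr8, Jun and Pmepa1 were at 2.56, 2.07, 1.43 and 2.09, and with slide as a random block Ifng was at 1.22. Dim probes limit the low genes: on TGFb array 2, 38.9% of probes were well above background.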
